A study of Mus musculus with 24 samples.

Results

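A set of 10 genes of the TGF-beta and activin system was followed by symbol in a table of 35275 mouse genes: Tgfb1, Tgfb2, Tgfb3, Tgfbi, Inhba, Inhbb, Fst, Fstl3, Acvr1c and Gdf10. All 10 of 10 were found, and none was chosen by a threshold on its values. They and the lists used below were chosen with earlier results of these data known. Their counts beside shares of all genes are therefore descriptions only. RNA-seq libraries came from white fat of 3 conditional adipose FoxO1 knockout mice (M5, M9 and M12) and 3 floxed FoxO1 mice as controls (M6, M7 and M10); the labels name no other allele and no treatment. Each mouse gave gonadal fat, a visceral pad, and inguinal fat, a subcutaneous pad, with 2 libraries per pad and so 6 libraries in each of 4 groups. The stated purpose was to find genes and pathways that FoxO1, a transcription factor held in check by insulin, regulates in fat. No source used here gives the Cre driver, strain, sex, age or diet.

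TGF-beta ligands are secreted bound to a latency peptide and, once freed, signal through paired serine/threonine kinase receptors to Smad2 and Smad3, driving extracellular matrix genes and restraining adipocyte differentiation. Activins, dimers of the chains made from Inhba and Inhbb, use the same Smads, and follistatin (Fst) and follistatin-like 3 (Fstl3) bind and block them. ALK7, encoded by Acvr1c, is a type I receptor of the family found mainly on fat cells, where it responds to activin B and several GDF ligands and lowers lipolysis.

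Values are FPKM, reads divided by gene length and by library depth, averaged over the 2 libraries of a pad, and the mouse is the replicate (n = 3 per group). Libraries held 14953657 to 25438811 assigned reads, or 32792246 to 46529555 per pad. The 2 libraries of a pad correlated at 0.991 to 0.996 across genes, against 0.897 to 0.985 for libraries of different mice of a group, and all 24 libraries were nearest to their own pad's partner. Foxo1 averaged 4.18 ± 0.243 FPKM in gonadal knockout pads and 10.3 ± 2.92 FPKM in gonadal control pads, and 4.10 ± 1.60 FPKM in inguinal knockout pads and 15.7 ± 3.48 FPKM in inguinal control pads (SD, n = 3 each), with no overlap between genotypes in either pad. Its log2 differences of -1.18 in gonadal and -1.86 in inguinal fat did not pass the test used here (limma adjusted p = 0.407 and 0.129). DESeq2 on read counts rebuilt from FPKM gave adjusted p of 1.2e-05 in gonadal and 1.8e-08 in inguinal fat, and edgeR 0.439 and 0.126. Summed adipocyte markers reached 6595.9 to 25760.5 FPKM over the 12 pads. Some pads held other tissue: epididymis and male tract markers summed to 5916.8 FPKM in gonadal M12, 2828.6 in M10 and 443.7 in M6 but at most 1.37 in the other gonadal pads, and B cell markers summed to 3.80 FPKM in inguinal M9 and 3.27 in M7 but 167 to 273 in the other inguinal pads. Skeletal muscle markers reached 583 FPKM in inguinal M6 and 531 in M7. Fewer cells of a type and less RNA per cell cannot be told apart in such bulk tissue.

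RefSeq promoter entries (build GRCm38.p6, 250 bases upstream of a start) matched 8 of the 10 genes, all but Fst and Tgfb3. The 3 members with the smallest unadjusted p-values in a comparison of genotypes are shown, 5′ to 3′ on the gene's strand, with the searched motifs in capitals: Tgfb2 at chr1:186705993-186706239 (minus strand), Acvr1c at chr2:58357896-58358008 (minus strand, trimmed where the annotated gene begins) and Gdf10 at chr14:33923337-33923586 (plus strand).
Tgfb2: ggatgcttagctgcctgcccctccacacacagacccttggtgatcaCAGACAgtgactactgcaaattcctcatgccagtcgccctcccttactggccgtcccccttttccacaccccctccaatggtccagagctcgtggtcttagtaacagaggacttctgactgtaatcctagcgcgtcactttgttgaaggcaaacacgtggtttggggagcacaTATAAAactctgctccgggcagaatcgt
Acvr1c: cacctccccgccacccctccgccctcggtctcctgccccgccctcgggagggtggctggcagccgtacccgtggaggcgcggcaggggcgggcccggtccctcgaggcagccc
Gdf10: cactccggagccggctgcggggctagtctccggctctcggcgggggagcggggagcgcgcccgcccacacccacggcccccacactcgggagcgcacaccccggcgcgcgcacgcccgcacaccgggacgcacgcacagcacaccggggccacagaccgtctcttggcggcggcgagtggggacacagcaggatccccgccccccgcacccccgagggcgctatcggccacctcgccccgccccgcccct

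Motifs were searched on both strands, and none of the matches given overlaps another. GTAAACA, a forkhead motif that FoxO proteins can bind, was in 0 of the 8 members' windows and in 3.17% of 32851 mouse windows of the same length. CAGACA, which contains the Smad-binding letters CAGA, was in the windows of Tgfb2 (204 bases before the start) and Fstl3 (162 bases before), against 17.1% of all windows. TATAAA, the TATA box letters, was in those of Tgfb2 (31 bases before the start), Fstl3 (29 bases before) and Inhba (91 bases before), against 12.4% of all windows. GGCGCC, a GC-rich Smad motif, was in that of Tgfbi alone among the 8, against 9.59% of all windows. These matches describe letters in a window and nothing about binding.

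Knockout and control mice were first compared in each pad. None of the 10 genes passed the test in either pad (limma on log2(FPKM + 0.5), Benjamini-Hochberg adjusted p under 0.05 over all genes tested). In gonadal fat 0.0% of 14851 genes passed, although 8.69% had an unadjusted p under 0.05, and in inguinal fat 0.022% of 13621 genes passed (3 genes, all lower in knockout), with 14.9% at an unadjusted p under 0.05. The inguinal count was 78 without control M7 and 0 without any 1 of the other 5 mice, and the gonadal count was 1 without control M10. In inguinal fat 4 of the 9 members tested had a lower level at an unadjusted p under 0.05 (11.6% of all genes) and 1 had a higher level (3.29%), while in gonadal fat 1 of 10 had a higher level (4.40%) and 0 a lower one (4.30%). Genotypes did not overlap for 4 of 9 members in inguinal fat, against 22.5% of all genes: knockout pads were lower for 3 (17.3% of all genes) and higher for 1 (5.28%). Tgfb2, counted as lower in both inguinal tallies, passed the minimum level only through the control pads. In gonadal fat genotypes did not overlap for 1 of 10, against 14.3%, and knockout pads were higher for it (6.79%) and lower for 0 (7.54%). With 3 mice against 3, an exact two-sided permutation test of a single gene cannot give a p below 0.1.

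**Figure D1:**
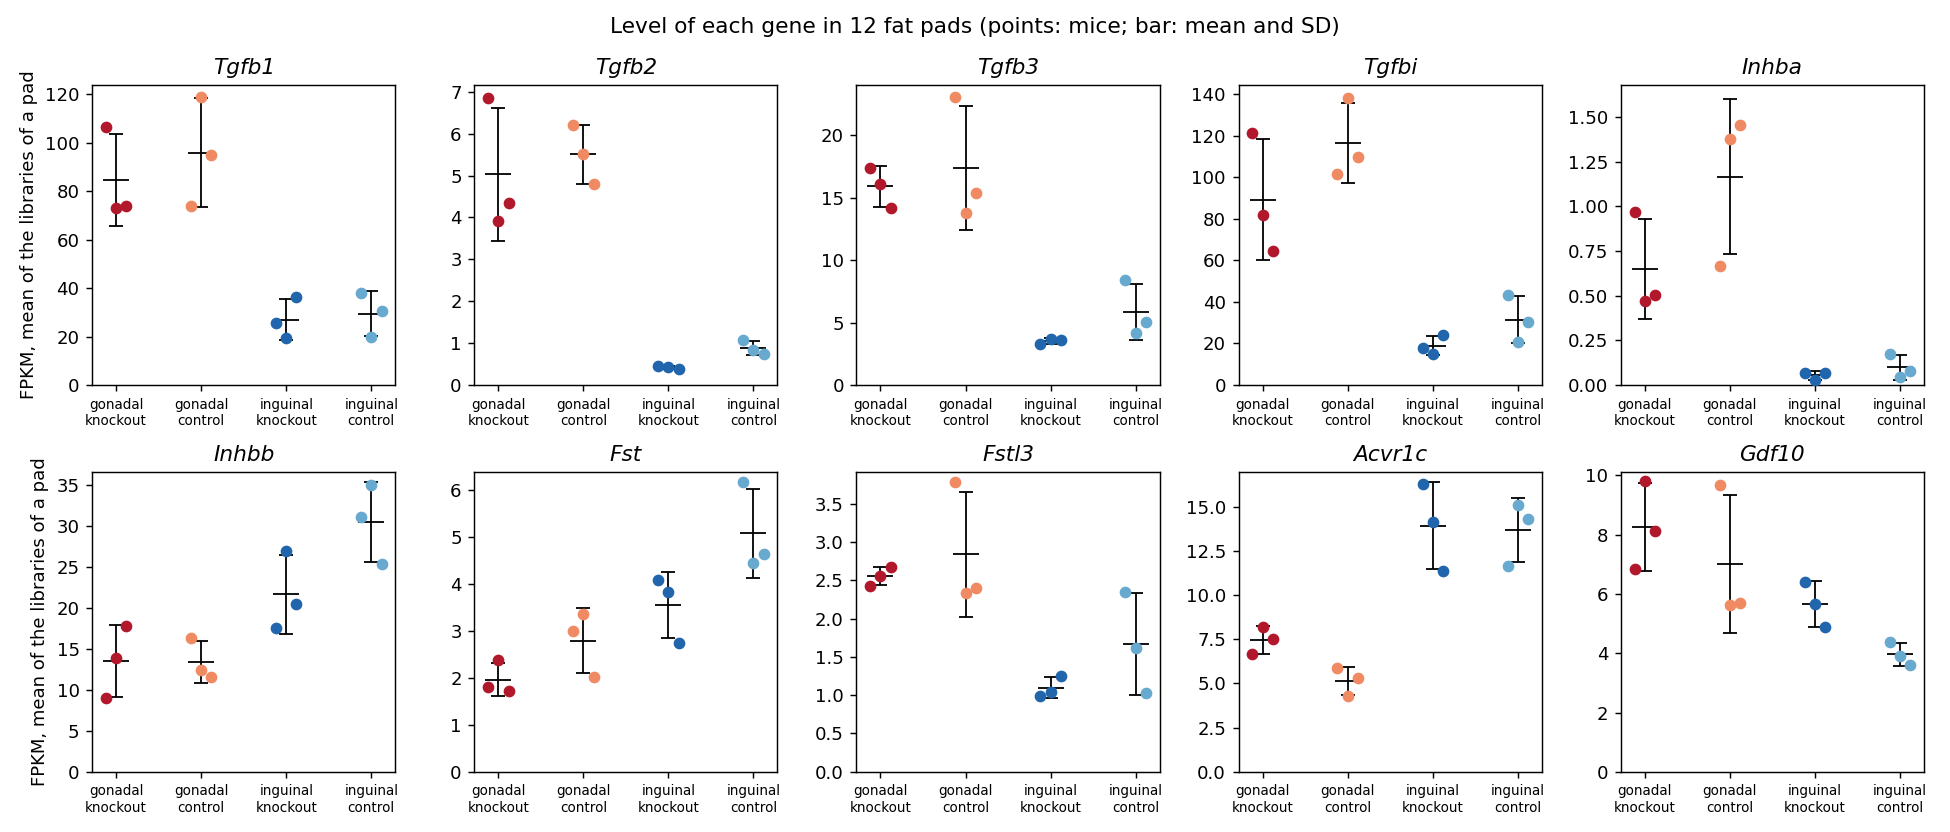
FPKM of each of the 10 genes (y axis, linear from 0) in 12 fat pads, grouped as gonadal knockout, gonadal control, inguinal knockout and inguinal control; points are mice (mean of 2 libraries) and bars the group mean and SD. Tgfb2 in inguinal fat was 0.382 to 0.445 FPKM in knockout pads and 0.748 to 1.07 FPKM in control pads, and Acvr1c in gonadal fat was 6.66 to 8.22 FPKM in knockout pads and 4.29 to 5.85 FPKM in control pads.

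Among the ligands, Tgfb2 (chr1:186623186-186705992, minus strand), which encodes the TGF-beta2 precursor, had the smallest p in inguinal fat. Its inguinal level was 0.445, 0.437 and 0.382 FPKM in knockout M5, M9 and M12, against 1.07, 0.827 and 0.748 FPKM in control M6, M7 and M10. Every knockout pad was below every control pad, and the knockout mean was 47.8% of the control mean. On the log2(FPKM + 0.5) scale the difference was -0.58 (SE 0.15, 95% interval -0.95 to -0.21, unadjusted p = 0.00879, limma adjusted p = 0.196). The added 0.5 shrinks a difference at so low a level: it was -0.90 with 0.1 added. The gene passed the minimum mean of 0.5 FPKM through the control pads, and rested on 68 to 203 reads per inguinal pad. DESeq2 on the rebuilt reads gave an adjusted p of 0.0104 and edgeR's quasi-likelihood test 0.166. In gonadal fat Tgfb2 had 6.84, 3.91 and 4.34 FPKM in knockout pads, against 6.20, 5.52 and 4.79 FPKM in control pads, with overlapping genotypes and a log2 difference of -0.15 (SE 0.21, limma adjusted p = 0.908).

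Tgfb3 (chr12:86056744-86079041, minus strand), the TGF-beta3 gene, had 3.27, 3.72 and 3.61 FPKM in inguinal knockout pads, against 8.38, 4.13 and 5.06 FPKM in inguinal control pads. The genotypes did not overlap, but the highest knockout pad lay just under the lowest control pad, and control M6 stood well above the rest. The log2 difference was -0.60 (SE 0.25, unadjusted p = 0.0492, limma adjusted p = 0.335), and -0.33 without M6. In gonadal fat Tgfb3 had 17.4, 16.1 and 14.2 FPKM in knockout pads, against 23.0, 13.7 and 15.4 FPKM in control pads, a log2 difference of -0.09 (SE 0.20) with overlapping genotypes. Its gene shares 5150 bases with Ttll5 on the other strand, listed at 1.88 to 3.17 FPKM, and no source used here gives the strand setting of the counting, so reads of the 2 genes cannot be told apart.

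Tgfb1 (chr7:25687002-25705077, plus strand), the TGF-beta1 gene made by macrophages and many other cells, did not separate the genotypes. Gonadal pads had 106.3, 73.2 and 74.0 FPKM in knockout mice, against 74.0, 118.8 and 95.02 FPKM in control mice. Inguinal pads had 25.6, 19.3 and 36.1 FPKM in knockout mice, against 38.2, 19.8 and 30.3 FPKM in control mice. Genotypes overlapped in both pads, with log2 differences of -0.18 (95% interval -0.73 to 0.37) in gonadal and -0.12 (-0.87 to 0.63) in inguinal fat.

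Inhba (chr13:16011851-16027211, plus strand), which encodes the activin A chain, was the lowest of the 10 genes in all 4 groups. It had 0.971, 0.471 and 0.503 FPKM in gonadal knockout pads, against 0.666, 1.37 and 1.46 FPKM in gonadal control pads, a log2 difference of -0.53 (SE 0.29, limma adjusted p = 0.685) with overlapping genotypes. In inguinal fat it was 0.0254 to 0.0688 FPKM in knockout pads and 0.0444 to 0.175 FPKM in control pads, from 2 to 14 reads per pad, and fell under the minimum for testing. Inhbb (chr1:119415465-119422248, minus strand), which encodes the activin B chain, was far more abundant. It had 17.5, 26.9 and 20.5 FPKM in inguinal knockout pads, against 31.1, 35.0 and 25.3 FPKM in inguinal control pads. Only knockout M9 reached into the control range, and the log2 difference was -0.49 (SE 0.19, unadjusted p = 0.0387, limma adjusted p = 0.312). In gonadal fat Inhbb had 8.997, 13.9 and 17.8 FPKM in knockout pads, against 16.3, 12.4 and 11.6 FPKM in control pads, with no direction that held: the log2 difference was -0.02, and 0.04 by DESeq2.

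Gdf10 (chr14:33923587-33935280, plus strand) encodes BMP3B, a ligand related to BMP3. It had 6.41, 5.68 and 4.87 FPKM in inguinal knockout pads, against 4.38, 3.92 and 3.59 FPKM in inguinal control pads. Every knockout pad was above every control pad, the knockout mean was 143% of the control mean, and the log2 difference was 0.46 (SE 0.13, 95% interval 0.14 to 0.78, unadjusted p = 0.0132, limma adjusted p = 0.219). DESeq2 gave an adjusted p of 0.0179 and edgeR 0.200. In gonadal fat Gdf10 had 6.86, 9.81 and 8.13 FPKM in knockout pads, against 9.69, 5.63 and 5.70 FPKM in control pads, where control M6 alone was in the knockout range, and the log2 difference was 0.25 (SE 0.24, limma adjusted p = 0.830).

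The receptor gene Acvr1c (chr2:58267453-58357895, minus strand) was the member with the smallest p in gonadal fat. Its gonadal level was 6.66, 8.22 and 7.54 FPKM in knockout pads, against 5.85, 4.29 and 5.32 FPKM in control pads. Genotypes did not overlap, the knockout mean was 145% of the control mean, and the log2 difference was 0.50 (SE 0.14, 95% interval 0.17 to 0.83, unadjusted p = 0.0103, limma adjusted p = 0.454). DESeq2 gave an adjusted p of 0.0372 and edgeR 0.461. In inguinal fat Acvr1c had 16.3, 14.1 and 11.4 FPKM in knockout pads, against 11.7, 15.1 and 14.3 FPKM in control pads, fully overlapping, with a log2 difference of 0.02 (95% interval -0.37 to 0.41). Summed adipocyte markers moved the same way in gonadal fat, at 8834.4 to 13208.0 FPKM in knockout pads and 6595.9 to 7192.7 FPKM in control pads (6 of 6 markers found, none at 0), and their part in the Acvr1c difference was not tested. In inguinal fat these sums overlapped.

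Both activin antagonists were lower on average in knockout pads of both depots, without passing the test. Fst (chr13:114452262-114458730, minus strand) had 4.08, 3.82 and 2.75 FPKM in inguinal knockout pads, against 6.17, 4.45 and 4.64 FPKM in inguinal control pads, with no overlap and a log2 difference of -0.47 (SE 0.19, unadjusted p = 0.0459, limma adjusted p = 0.328). In gonadal fat it had 1.81, 2.38 and 1.71 FPKM in knockout pads, against 3.01, 3.36 and 2.02 FPKM in control pads, where only knockout M9 was above a control pad, and a log2 difference of -0.41 (SE 0.20, limma adjusted p = 0.645). Fstl3 (chr10:79777272-79782630, plus strand) had 0.993, 1.05 and 1.25 FPKM in inguinal knockout pads, against 2.35, 1.62 and 1.03 FPKM in inguinal control pads, and 2.43, 2.56 and 2.67 FPKM in gonadal knockout pads, against 3.78, 2.33 and 2.40 FPKM in gonadal control pads. Genotypes overlapped in both pads, at log2 differences of -0.40 (SE 0.25) in inguinal and -0.10 (SE 0.18) in gonadal fat. The gonadal Fstl3 estimate was 0.09 without control M6.

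Tgfbi (chr13:56609603-56639339, plus strand), a matrix protein gene named for its induction by TGF-beta, had 18.1, 14.7 and 24.0 FPKM in inguinal knockout pads, against 43.3, 20.8 and 30.6 FPKM in inguinal control pads. Only knockout M12 exceeded a control pad, and the log2 difference was -0.69 (SE 0.30, limma adjusted p = 0.361). In gonadal fat Tgfbi had 121.5, 81.8 and 64.7 FPKM in knockout pads, against 101.8, 138.3 and 109.8 FPKM in control pads, with knockout M5 inside the control range and a log2 difference of -0.42 (SE 0.25, limma adjusted p = 0.711).

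**Figure D2:**
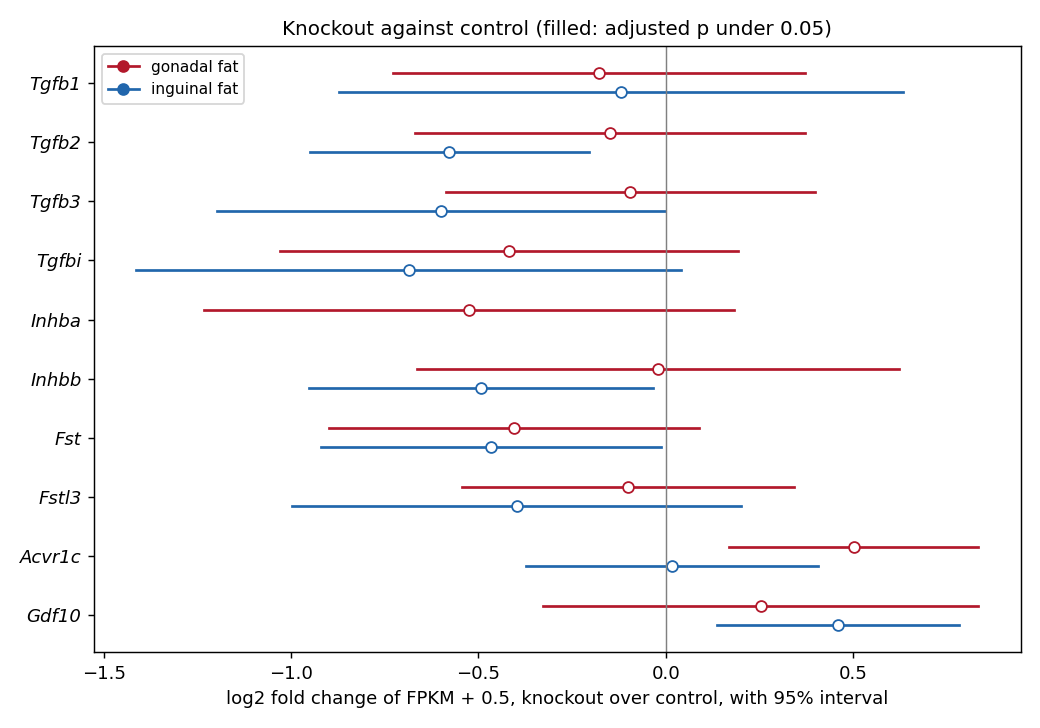
Log2 fold change of FPKM + 0.5, knockout over control, for each gene (x axis) in gonadal and inguinal fat, with 95% intervals from the limma fit over 3 mice per group; open points have an adjusted p of at least 0.05, and Inhba was under the minimum level in inguinal fat. All points are open, and the intervals that leave out 0 are those of Acvr1c in gonadal fat and of Tgfb2, Tgfb3, Inhbb, Fst and Gdf10 in inguinal fat.

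Macrophage markers also differed between inguinal genotypes, summing to 90.4 to 128 FPKM in knockout pads and 164 to 324 FPKM in control pads (5 of 6 markers found, none at 0). Inguinal smooth muscle markers summed to 36.3 to 53.6 FPKM in knockout pads and 57.7 to 148 FPKM in control pads, and progenitor and fibroblast markers to 207 to 234 FPKM in knockout pads, under every control pad, of which the highest held 313 FPKM. Red blood cell markers summed to 2166.3 to 2371.9 FPKM in inguinal knockout pads and 2826.9 to 9692.6 FPKM in inguinal control pads. All 5 of 5 were found, each lower at an unadjusted p under 0.05 (background 11.6%). In gonadal fat 5 of 5 were lower too, 4 at an unadjusted p under 0.05 (background 4.30%). Mesothelial markers summed to 1.59 to 2.16 FPKM in inguinal knockout pads and 3.08 to 4.25 FPKM in inguinal control pads. Only 2 of these 6 markers were above the minimum level there, 1 of them lower at an unadjusted p under 0.05. These lists moved with Tgfb2, Tgfb3, Tgfbi and Fst, and their part in those differences was not tested. The median log2 difference over the 9 inguinal members was -0.47, beside -0.10 over all genes tested; with each pad centred on its own median the 2 values were -0.35 and 0.02. In gonadal fat the medians were -0.13 over 10 members and -0.02 over all genes.

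The authors' deposited tables list 1808 genes as changed in gonadal fat and 2220 in inguinal fat, from read counts of these libraries. The FPKM table holds 35275 genes. The authors' deposited table for gonadal fat holds 1 member, Acvr1c, at a log2 fold change of 0.54 (adjusted p = 2.34e-05). The authors' deposited table for inguinal fat holds 4 members: Tgfb2 at -0.83 (adjusted p = 1.49e-05), Tgfb3 at -0.53 (0.0056), Tgfbi at -0.54 (0.00755) and Gdf10 at 0.60 (6.56e-06). The deposited tables list the 6 libraries of a group separately, so their p-values may rest on libraries rather than on 3 mice. Counting all 6 libraries of a group as replicates called Acvr1c in gonadal fat, and Tgfb2, Tgfb3, Tgfbi, Inhbb, Fst and Gdf10 in inguinal fat. That fit treats 2 libraries of 1 pad as separate animals. It also called many others of the 14851 gonadal and 13621 inguinal genes tested, as counted in the last section.

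Whether the effect of the knockout differed between depots was tested directly, as the gonadal minus the inguinal log2 difference. No member passed, and 0.0% of 14577 genes did, with 4.97% at an unadjusted p under 0.05; edgeR called 0 genes and DESeq2 16. Which member had the smallest p depended on the fit: Acvr1c here, at 0.48 (SE 0.22, unadjusted p = 0.0525, limma adjusted p = 1.0), Tgfb3 with the mouse as a block pairing its 2 pads (unadjusted p = 0.0114, limma adjusted p = 0.727), and Tgfb2 by edgeR (unadjusted p = 0.0258) and DESeq2 (0.0209). For Tgfb2 it was 0.43 (SE 0.26), for Tgfb3 0.51 (SE 0.34), for Inhbb 0.47 (SE 0.35) and for Gdf10 -0.21 (SE 0.29). The patterns seen in 1 pad are thus not shown to be particular to it.

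The depots themselves differed far more than the genotypes. In knockout mice 8 of the 9 genes tested passed between gonadal and inguinal fat, where 47.8% of 14593 genes passed (35.1% higher, 12.7% lower). Of these members 6 were higher (Tgfb2 among them) and 2 lower in gonadal fat. In control mice 9 of 10 passed, 6 higher (Inhba among them) and 3 lower, where 41.4% of 14505 genes passed (26.9% higher, 14.5% lower). Those splits depend on scaling. In knockout mice 5122 genes were higher and 1849 lower in gonadal fat, but 2206 and 4021 with each pad centred on its median and 3204 and 2903 by edgeR. In control mice 3904 were higher and 2106 lower, but 2437 and 3768 when centred and 3152 and 2841 by edgeR. The median over all genes was 0.27 in knockout mice and 0.18 in control mice on the log2 scale, against -0.14 in knockout and -0.12 in control mice when centred. The 9 members tested in knockout mice and the 10 in control mice kept their direction under each scaling.

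The 3 TGF-beta ligands and Tgfbi were higher in gonadal fat of both genotypes. Tgfb2 averaged 5.03 ± 1.58 FPKM in gonadal and 0.421 ± 0.0344 FPKM in inguinal fat of knockout mice (SD, n = 3 each), a log2 difference of 2.55 (SE 0.21, limma adjusted p = 0.000554). In control mice it averaged 5.50 ± 0.706 FPKM in gonadal and 0.880 ± 0.165 FPKM in inguinal fat, a log2 difference of 2.12 (SE 0.16, limma adjusted p = 0.000547). In every mouse the gonadal pad held several times the inguinal level. Tgfbi differed by 2.19 in knockout and 1.92 in control mice, Tgfb1 by 1.65 in knockout and 1.71 in control mice, and Tgfb3 by 2.02 in knockout and 1.51 in control mice, with adjusted p of 0.00878 or less. For these 4 genes the depots did not overlap in either genotype, as for 63.5% of all genes in knockout mice and 58.9% in control mice. Inhba averaged 1.17 ± 0.434 FPKM in gonadal and 0.0987 ± 0.0683 FPKM in inguinal fat of control mice (log2 difference 1.45, limma adjusted p = 0.00712). It passed the minimum level of 0.5 FPKM there through the gonadal pads alone, as Tgfb2 did in knockout mice, so these calls are given as a description only. In knockout mice Inhba was too low to be tested, at 0.648 ± 0.280 FPKM in gonadal and 0.0536 ± 0.0244 FPKM in inguinal fat.

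The activin B chain, the fat-cell receptor and follistatin ran the other way. Acvr1c averaged 7.47 ± 0.781 FPKM in gonadal and 13.9 ± 2.45 FPKM in inguinal fat of knockout mice (log2 difference -0.85, limma adjusted p = 0.00579). In control mice it averaged 5.15 ± 0.793 FPKM in gonadal and 13.7 ± 1.81 FPKM in inguinal fat (-1.33, adjusted p = 0.00167). In knockout mice the Inhbb depots overlapped, at 13.6 ± 4.39 FPKM in gonadal and 21.6 ± 4.79 FPKM in inguinal fat (-0.68, limma adjusted p = 0.0848, but 0.0448 by edgeR, 0.00421 by DESeq2 and 0.0239 with centred pads). In control mice Inhbb averaged 13.4 ± 2.56 FPKM in gonadal and 30.5 ± 4.85 FPKM in inguinal fat, a called difference of -1.16 (limma adjusted p = 0.00365). Fst differed by -0.71 in knockout mice (adjusted p = 0.0210) and by -0.77 in control mice (0.0273).

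Fstl3 and Gdf10 gave depot calls that depended on the fit, and with no minimum level Fst in control mice was no longer called (adjusted p = 0.0536). Fstl3 was higher in gonadal fat of knockout mice (log2 difference 0.94, limma adjusted p = 0.00203), and in control mice the difference was 0.64 with overlapping depots (adjusted p = 0.114, or 0.0447 with the mouse as a block pairing its 2 depots). Gdf10 was higher in gonadal fat by 0.51 in knockout mice (limma adjusted p = 0.0411) and by 0.71 in control mice (0.0428). With centred pads the Gdf10 difference was 0.10 in knockout mice (adjusted p = 0.699) and 0.41 in control mice (0.174), and the knockout call was also lost with the mouse block (0.0776). With no minimum level the Gdf10 calls were lost too (0.0698 in knockout, 0.0759 in control mice). DESeq2 called Gdf10 in neither genotype (0.348 in knockout, 0.0535 in control mice), nor did edgeR (0.225 in knockout, 0.0711 in control mice).

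**Figure D3:**
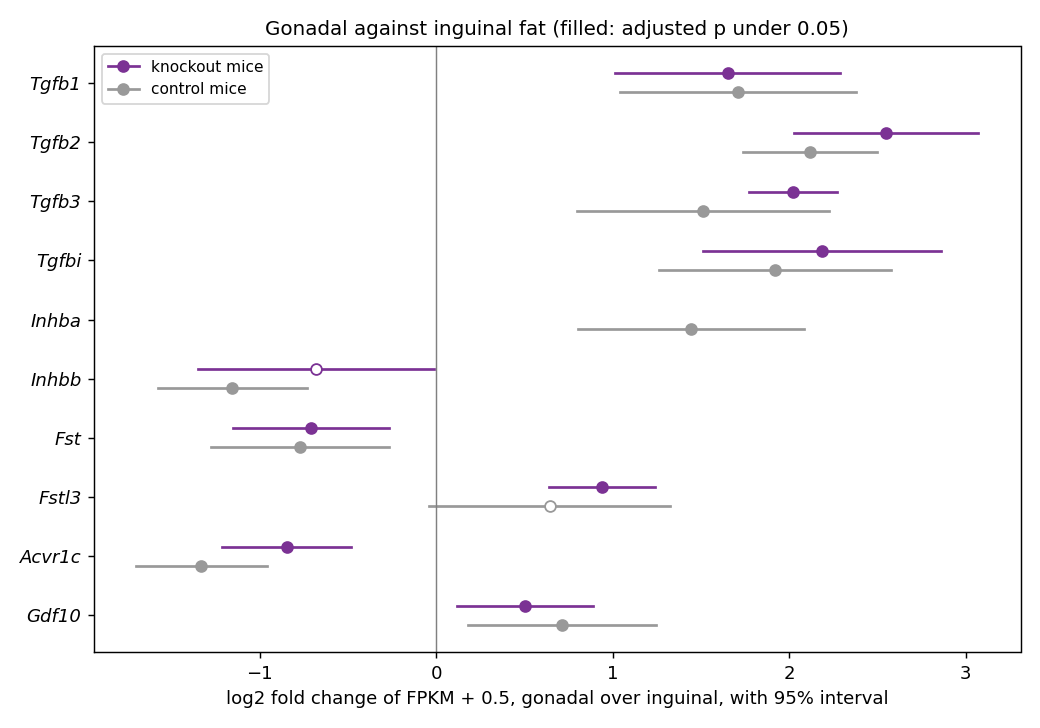
Log2 fold change of FPKM + 0.5, gonadal over inguinal fat, for each gene (x axis) in knockout and control mice, with 95% intervals from the limma fit over 3 mice per group; filled points have an adjusted p under 0.05, and Inhba was under the minimum level in knockout mice. The TGF-beta ligands and Tgfbi lie at 1.51 to 2.55, and Inhbb, Fst and Acvr1c lie at -0.68 to -1.33.

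Single mice carried some depot calls. Without knockout M5 the calls for Tgfb1 (0.0579), Acvr1c (0.0565), Fst (0.184) and Gdf10 (0.0532) were lost, and the count over all genes was 3047. Without knockout M9, where that count was 4138, Fst (0.0717) and Gdf10 (0.182) were lost, and without knockout M12 Gdf10 was (0.167). Without control M10 the calls for Tgfb1 (adjusted p = 0.0588), Tgfb3 (0.0828), Inhba (0.0879), Fst (0.158) and Gdf10 (0.168) were lost, and the count over all genes was 1534. Without control M7 those for Inhba (0.0562) and Gdf10 (0.0889) were lost, and without control M6 that for Fst (0.103). Tgfb2, Tgfb3, Tgfbi and Fstl3 in knockout mice, and Tgfb2, Tgfbi, Inhbb and Acvr1c in control mice, were called without any 1 mouse. Tgfb2 in knockout mice passed the minimum level through the gonadal pads alone, so its calls remain a description only.

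The depots also differ in cell makeup by their markers. Macrophage markers summed to 832 to 1533 FPKM in the 6 gonadal pads and 90.4 to 324 FPKM in the 6 inguinal pads, mesothelial markers to 129 to 285 FPKM and 1.59 to 4.25 FPKM, and adipocyte markers to 6595.9 to 13208.0 FPKM and 14911.9 to 25760.5 FPKM. No adipocyte, macrophage or mesothelial marker found was at 0 throughout a group. The part of these differences in the members' depot differences was not tested.

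By level per kilobase, Tgfbi and Tgfb1 led the 10 genes in gonadal fat of both genotypes, at 89.3 ± 29.1 and 84.5 ± 18.9 FPKM in knockout pads and 117 ± 19.2 and 95.9 ± 22.5 FPKM in control pads, and these 2 neighbours overlapped. Tgfb3 and Inhbb came next and overlapped in both genotypes. In inguinal fat Tgfb1, Inhbb and Tgfbi formed the top 3 and overlapped, with Acvr1c next after them (13.9 FPKM in knockout pads, 13.7 FPKM in control pads). Tgfb2 held rank 7 of 10 in gonadal knockout pads and rank 6 in gonadal control pads, but rank 9 in both inguinal groups.

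Beside the members, 123 genes of the pathway in 9 lists were examined. None of those above the minimum level passed the limma test between genotypes in either pad. In inguinal fat DESeq2 gave adjusted p under 0.05 for Thbs1, Htra1, Chrdl1, Fn1, Col1a2, Id3, Bmp3, Tgfbr3 and Ski (1.5e-10 to 0.0399). It did not for Bmp6, Mmp2, Acvrl1, Smad2, Smad6, Ldlrad4, Id1 and Lipe, and edgeR called none of these genes. The authors' deposited inguinal table lists each named gene that DESeq2 called, under the limit on replicates given above. Their gonadal table lists the genes named below for gonadal fat except Gdf6, Smad7, Id1 and Id3. The lists were chosen with earlier results of these data known, so their counts beside the background are descriptions only. Of 16 genes that TGF-beta is known to induce or repress, 12 had a lower level in inguinal knockout pads, 7 of them at an unadjusted p under 0.05 (background 11.6%), with a median log2 difference of -0.60. In gonadal fat 15 of the 16 were lower, 4 at an unadjusted p under 0.05 (background 4.30%), with a median of -0.44. Col1a2, a fibrillar collagen chain, had 94.5, 102.9 and 80.6 FPKM in inguinal knockout pads, against 161, 145 and 146 FPKM in inguinal control pads (log2 difference -0.70, limma adjusted p = 0.129). Fn1, fibronectin, differed by -0.81 there (adjusted p = 0.129), and Postn, periostin, by -0.60 in gonadal fat (0.407), as did Acta2, smooth muscle actin, by -1.03 (0.488). The smooth muscle marker list, which holds Acta2 and Tagln as well, summed to 80.0 to 121 FPKM in gonadal knockout pads and 132 to 334 FPKM in gonadal control pads.

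Thbs1, a matrix protein that activates latent TGF-beta, had the largest log2 difference among the named pathway genes in either pad. It had 1.24, 1.23 and 1.57 FPKM in inguinal knockout pads, against 72.2, 7.61 and 27.0 FPKM in inguinal control pads, and 16.8, 9.76 and 8.78 FPKM in gonadal knockout pads, against 57.2, 23.1 and 44.8 FPKM in gonadal control pads. Genotypes did not overlap in either pad, but the control pads spread widely, and the log2 differences of -3.78 (SE 0.75) and -1.74 (SE 0.39) had limma adjusted p of 0.149 and 0.421. In that list of latency, storage and activation genes, 6 of 15 had a lower inguinal level at an unadjusted p under 0.05 (background 11.6%) and 1 a higher one (3.29%), with Mmp2 among the lower (-0.49, adjusted p = 0.235). In gonadal fat 2 of 16 had a lower level (background 4.30%), Thbs1 and Fbn1, fibrillin-1 (-0.43, 0.454).

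Among the other secreted or membrane antagonists, 5 of 13 had a lower inguinal level at an unadjusted p under 0.05 (background 11.6%) and 3 of 15 a lower gonadal level (4.30%). Chrdl1, a BMP antagonist, had 10.4, 8.35 and 7.27 FPKM in inguinal knockout pads, against 21.3, 16.7 and 16.2 FPKM in inguinal control pads (log2 difference -1.02, limma adjusted p = 0.129), and differed by -1.54 in gonadal fat (0.421). Htra1, a secreted protease that binds TGF-beta family ligands, had 78.5, 78.9 and 67.7 FPKM in inguinal knockout pads, against 208, 146 and 160 FPKM in inguinal control pads (-1.17, adjusted p = 0.111). Bgn, the proteoglycan biglycan, differed by -0.57 in gonadal fat (0.454).

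Receptors showed smaller differences. Tgfbr2, the ligand-binding TGF-beta receptor, had 42.4, 42.3 and 38.1 FPKM in gonadal knockout pads, against 60.8, 51.0 and 56.5 FPKM in gonadal control pads (log2 difference -0.45, limma adjusted p = 0.421). Tgfbr3, the coreceptor betaglycan, had 18.6, 19.8 and 18.1 FPKM in inguinal knockout pads, against 26.2, 25.0 and 28.3 FPKM in inguinal control pads (-0.48, adjusted p = 0.129). Acvrl1, an endothelial type I receptor, differed by -0.35 in gonadal (0.454) and -0.39 in inguinal fat (0.269). Of the receptor list 3 of 13 had a lower gonadal level (background 4.30%) and 2 of 12 a lower inguinal level (11.6%) at an unadjusted p under 0.05, the inguinal share being near its background.

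Further named genes had limma adjusted p of 0.111 or more. Among other ligands these were Bmp3 (log2 difference -0.76) and Bmp6 (-0.44) in inguinal fat and Gdf11 (-0.41) and Gdf6 (-0.49) in gonadal fat. Among the Smads they were Smad6 (-0.39) and Smad2 (-0.24) in inguinal fat and Smad3 (-0.23) and Smad7 (-0.19) in gonadal fat. Of intracellular repressors of the pathway, Pmepa1 (0.67) and Smurf1 (0.14) were named in gonadal fat and Ski (-0.45) and Ldlrad4 (0.33) in inguinal fat. The BMP target Id3 had 56.3, 56.0 and 55.2 FPKM in inguinal knockout pads, against 94.7, 101.7 and 81.3 FPKM in inguinal control pads (-0.72), and differed by -0.36 in gonadal fat, where Id1 differed by -0.18; Id1 differed by -0.48 in inguinal fat.

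Of 9 adipocyte genes tied to ALK7 signalling, most of them lipolysis and differentiation genes, 8 had a higher gonadal level in knockout mice, 5 at an unadjusted p under 0.05 (background 4.40%). The other 1 had a lower gonadal level, also at an unadjusted p under 0.05 (background 4.30%). The median log2 difference was 0.36. Lipe, hormone-sensitive lipase, had 160, 223 and 199 FPKM in gonadal knockout pads, against 138, 115 and 122 FPKM in gonadal control pads (log2 difference 0.63, limma adjusted p = 0.421). Abhd5, a lipase coactivator, differed by 0.34 there (0.451). In inguinal fat none of the 9 reached that level, the median was 0.03 and Lipe differed by 0.28 (0.399). Lipe and Plin1 are also adipocyte markers, a list whose gonadal sums were higher in knockout pads, as given for Acvr1c.

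**Figure D4:**
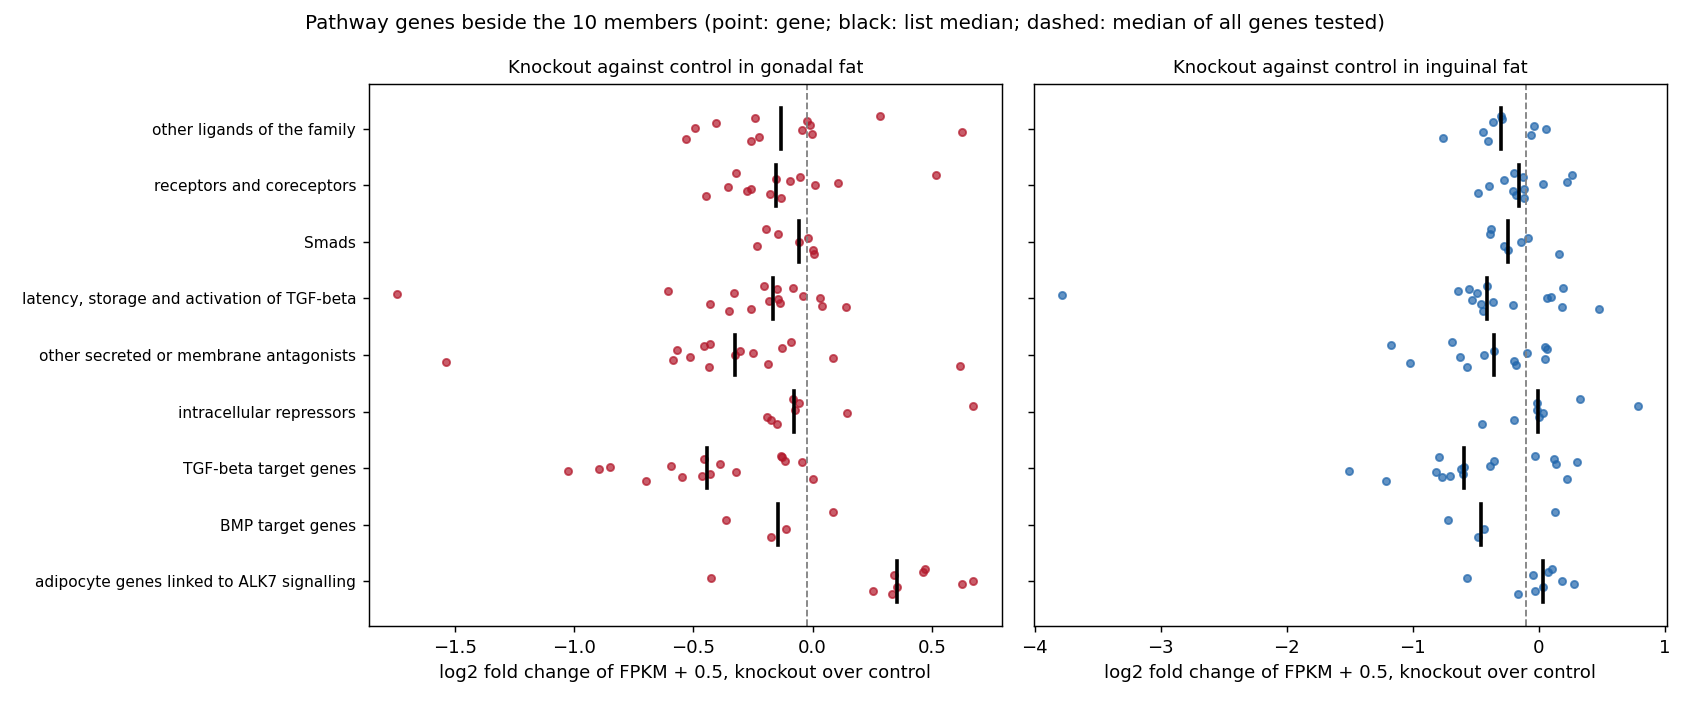
Log2 fold change of FPKM + 0.5, knockout over control (x axis), of the genes of 9 pathway lists (rows) in gonadal fat (left) and inguinal fat (right); points are genes, black bars list medians and the dashed line the median of all genes tested. The median of TGF-beta target genes lies at -0.44 in gonadal and -0.60 in inguinal fat, and that of the ALK7-linked adipocyte genes at 0.36 and 0.03.

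Between depots many genes of these lists passed the test, where 35.1% of all genes were called higher and 12.7% lower in knockout mice, and 26.9% higher and 14.5% lower in control mice, shares that turn with the scaling. With centred pads the medians of the 3 lists given here kept their sign in both genotypes. In knockout mice 11 of 16 latency and activation genes passed as higher in gonadal fat and 0 as lower (median log2 difference 1.12), and in control mice 13 of 16 did and 0 were lower (0.95). Of TGF-beta target genes 13 of 16 were called higher and 1 lower in knockout mice, and 12 higher and 2 lower in control mice. The ALK7-linked adipocyte genes had the direction of Acvr1c, with 7 of 9 called lower in gonadal fat of knockout mice (background 12.7%) and 8 of 9 in control mice (14.5%). Lipe and Plin1 of this list are also among the adipocyte markers, whose sums were lower in gonadal fat.

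Across the 12 pads the genes whose log2 levels tracked Acvr1c most closely were Csad (Pearson r = 0.994), Apmap (0.992) and Plin1 (0.988), and those tracking Tgfb2 were Gatm (0.997), Grn (0.996) and Cst3 (0.996). These points form 2 depots that differ in level and in marker content, so the r values mainly rank genes by their depot difference.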

How the data were processed

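The 10 genes, the pathway lists and the marker lists were chosen with earlier results of these data known. The labels give total RNA, a Qiagen RNeasy extraction and a NEBNext Ultra library kit; CASAVA, STAR and mm10 come from the submitters' processing notes, and no source used here gives the counting tool or its strand setting. FPKM of 35275 genes in 24 libraries were deposited by the authors, per the file headers. Their deposited comparison tables hold read counts, group means as a scaled signal, log2 fold changes and p-values for genes listed as changed, per the file headers. Column names were read as z for knockout, f for control, e for gonadal and s for inguinal; the z reading was checked against the authors' knockout means. Those names lack the labels' replicate numbers; each column was therefore assigned to a group, with the number after M as the animal. The comparison tables' 24 further FPKM columns were used only, with the read counts there, to work out each library's total of assigned reads.

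The 2 libraries of a pad were averaged. Genes with a mean of at least 0.5 FPKM over the pads of a fit entered two-sided limma 3.58.1 tests with a mean trend (R 4.3.3) of log2(FPKM + 0.5), Benjamini-Hochberg adjusted over all genes tested. The added 0.5 makes fold changes of low genes too small. Dividing FPKM by its smallest step gave whole reads for 100.0% of values (tolerance 0.001), on which edgeR 4.0.16 and DESeq2 1.42.0 were run as alternatives. Other alternatives were the added constant, the minimum level, pad centring, libraries as replicates, marker covariates, each mouse left out and the mouse as a block. Both depots came from the same animals by the column names, so the block pairs them; deviations of a mouse's 2 pads correlated at -0.095 to 0.14. Named genes were all 10 members, Foxo1, any called gene of each pathway list or else the 2 with the smallest p per comparison of genotypes, and the 3 genes most like the member with the smallest p in each. A gene that this rule names is not reported here. Of 198 list genes 197 were found. Scripts were tested on simulated data. P-values measure the spread between mice. At a depth of 14953657 to 25438811 reads per library, the members with the fewest reads were Inhba and, in inguinal fat, Fstl3 and Tgfb2.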

Additional observations from a re-analysis of the deposited data

How the results depend on the processing

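Over 652 refits of single members, 589 kept their direction and side of the threshold, 25 lost a call, 16 gained one and 22 changed sign. Leaving out 1 mouse gave ranges across 0 for gonadal Tgfb3 (-0.24 to 0.12), Inhbb (-0.23 to 0.24) and Fstl3 (-0.207 to 0.0911), for inguinal Tgfb1 (-0.37 to 0.10) and Acvr1c (-0.10 to 0.15), and, in the gonadal minus inguinal effect, for Tgfb1 (-0.44 to 0.36), Tgfbi (-0.081 to 0.66), Fst (-0.0675 to 0.27) and Gdf10 (-0.33 to 0.0009). Gonadal Inhbb was 0.0041 when centred, 0.024 by edgeR and 0.041 by DESeq2, inguinal Tgfb1 was 0.0043 by DESeq2, and the Fst depot difference of effects was -0.045 when centred, -0.12 by edgeR and -0.11 by DESeq2. Counts over all genes moved with libraries as replicates to 1125 of 14851 (gonadal), 2189 of 13621 (inguinal), 265 of 14577 (difference of effects) and 9100 of 14505 (depots in controls). By DESeq2 the counts were 313, 661 and 16 for the first 3. The inguinal count was 588 with the B cell list as covariate and 0 with the skeletal muscle list. With 1 mouse left out the counts were 0 to 1 gonadal, 0 to 78 inguinal, 3047 to 5911 for depots in knockout mice and 1534 to 5257 in control mice. With the mouse as a replicate block, the counts were 0 for the difference of effects, 6365 for depots in knockouts and 5092 in controls, and among members it changed only the calls given for Fstl3 and Gdf10. No paired analysis of knockout against control was possible because they are different mice. The cause of each change was not tested. Depth limits inguinal Inhba (2 to 14 reads per pad), Fstl3 (67 to 186) and Tgfb2 (68 to 203) most.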
